A study of Rattus norvegicus with 13 samples.

Results

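Rat articular chondrocytes cultured with glucosamine alone were compared with untreated chondrocytes of the same preparation, to find which genes an exogenous amino sugar shifts in the absence of an inflammatory stimulus. The comparison rested on 5 of the 13 arrays of the series, 2 arrays whose titles name glucosamine treatment (replicates a and b) and 3 control arrays (replicates a, b and c), and on every probe set of the Affymetrix Rat Genome 230 2.0 array that is not a control. The cells came from femoral head cartilage of 2-month-old male Wistar rats, were passaged, pooled and divided over 20 flasks, and RNA was extracted per flask. The 4 flasks of each group with the highest absorbance ratios were labeled, 1 array each. Glucosamine was present at 20 mM for 20 hours, and the untreated flasks received neither glucosamine nor IL-1β. The other 8 arrays, 4 from flasks with IL-1β (14 hours at 10 ng/ml) and 4 from flasks where glucosamine preceded the same IL-1β by 6 hours, served to estimate the spread between arrays and to measure the glucosamine effect a further time on separate arrays. All flasks came from 1 pool of cells, so the p-values describe the spread between flasks of that pool and not between animals, and 1 untreated and 2 glucosamine arrays that failed the study's quality control were not analysed here. Passaged monolayer chondrocytes are a simplified model of cartilage, and in such cultures fewer cells of a kind and less RNA per cell cannot be told apart.

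Glucosamine enters cells through glucose transporters, is phosphorylated by hexokinase and joins the hexosamine pathway, whose end product, UDP-N-acetylglucosamine, is a building block of hyaluronan, of the glycans added to proteins in the endoplasmic reticulum (ER), and of the O-GlcNAc mark on nuclear and cytosolic proteins. Chondrocytes surround themselves with type II collagen and with aggrecan, a proteoglycan that is tethered to hyaluronan by link protein. When unfolded proteins collect in the ER, the unfolded protein response raises chaperones and folding enzymes and, if it lasts, transcription factors such as CHOP.

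The 5 arrays were alike in scale, with mean signals of 127 to 135 and 22130 to 23180 probe sets above the floor of 5.71, which is the 25th percentile of all values and below which signals were set to it. Log2 signals correlated at 0.990 between the 2 glucosamine arrays, at 0.991 to 0.993 among the 3 untreated arrays, and at 0.962 to 0.965 between arrays of different groups. Both replicate d arrays of the IL-1β groups stood apart, their 1st percentiles being -36.8 and -31.0, while the remaining 11 arrays had -6.47 to -4.81. They enter here only through the shared estimate of spread and through the comparison with IL-1β. All 12 tested chondrocyte markers exceeded the floor on at least 1 array of each group and summed to signals of 13978 to 15606 on the untreated and 11359 to 11984 on the glucosamine arrays. Of the 12, 3 were called downward (Hapln1, Col9a1 and Col9a2) and none upward. Of 11 macrophage and leukocyte markers, none was called, their sums were 289 to 310.4 and 310.3 to 386, and Itgam, Csf1r and Tyrobp were at the floor on all 5 arrays. Of 7 endothelial markers none was called either, and Vwf and Emcn were at the floor on all 5 arrays. The adipocyte markers Pparg, Adipoq and Cidec were at the floor on all 5 arrays, and the 9 markers of that cell type summed to 125 to 176. Among 10 fibroblast and synovial lining markers 3 were called downward, with sums of 13419 to 15290.1 and 12444 to 13386, so that these markers were present as well. Sums over different probe sets cannot be ranked, and they do not single out a cell type.

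Glucosamine moved a large part of the transcriptome in both directions. Of 29263 probe sets that exceeded the floor on at least 1 array, 4300 (14.7%) were called at an adjusted p under 0.05 by limma, 2088 upward (7.14%) and 2212 downward (7.56%). Signals of glucosamine and untreated arrays did not overlap for any of the 4300, against 49% of all probe sets tested. More falls than rises passed each fold limit, although the largest single change was a rise: 569 of the probe sets called upward and 1090 of those called downward changed by at least 2-fold, 103 and 271 by at least 4-fold, and 3 and 24 by at least 16-fold. In 3957 of the 4300 (92.0%), the group with the higher mean lay at or above 4 times the floor. With 1 probe set standing for each of 13748 named genes, chosen as the brightest on average, 2712 genes (19.7%) were called, 1424 upward (10.4%) and 1288 downward (9.37%), and the median log2 fold change of all genes was 0. Signals of both groups did not overlap for any called gene, against 56.8% of all genes tested. The counts of lists below are of genes, to be read beside 10.4% upward and 9.37% downward over all genes. Without glucosamine replicate a 2599 probe sets were called, and without replicate b 2389. Folds of genes whose lower group lies near the floor depend on where it is set. Other tested probe sets existed for 70 of the genes described below, and in 15 of them a probe set of at least 4 times the floor differed in its call, none in the opposite direction: Abcg1, Acaa2, Akr1b1, Chst12, Col12a1, Col2a1, Hapln1, Klf2, Nans, Ogt, Plin2, Sec61a1, Slc6a9, Tpm1 and Wars1.

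**Figure D1:**
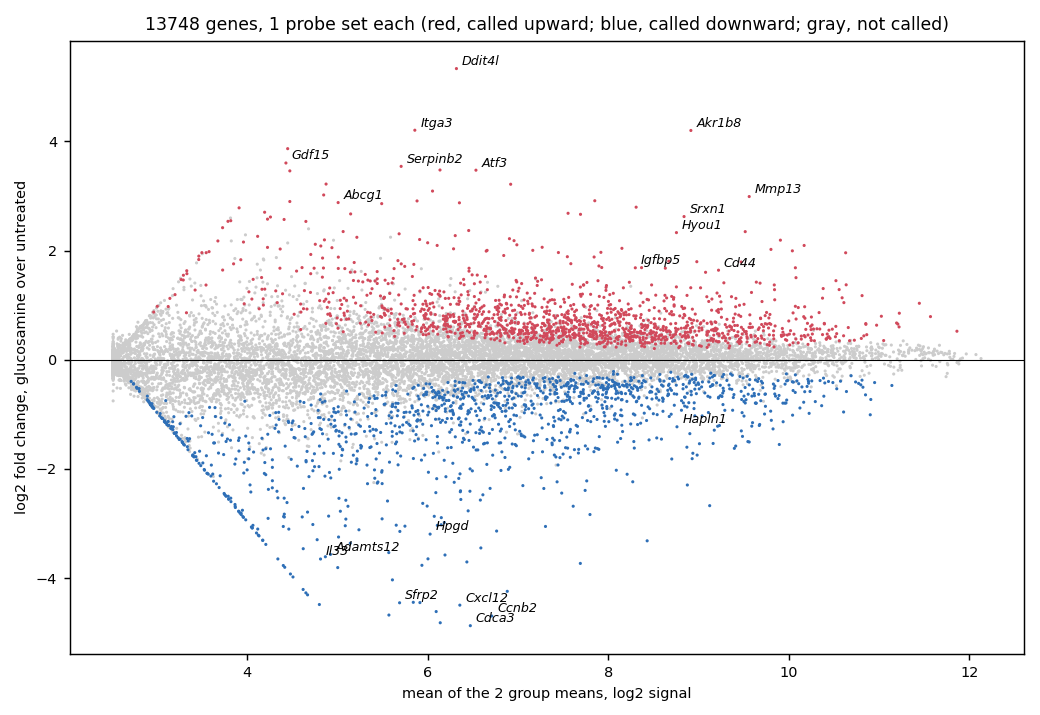
Log2 fold change of 13748 genes (y axis, glucosamine over untreated) against the mean of both group means in log2 signal (x axis), 1 point per gene, with genes called upward in red, genes called downward in blue and the others in gray. The 1424 red and 1288 blue points lie on both sides of 0, the lowest points reach -4.87 (Cdca3), the highest 5.33 (Ddit4l), and the straight edge of blue points at the lower left holds genes that fell to the floor.

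The genes of mitosis fell together and further than any other list. Of 43 tested genes for mitosis and chromosome segregation, 41 fell and none rose, with a median log2 fold change of -3.03 over the list. Ccnb2, which encodes a cyclin that activates the mitotic kinase CDK1, gave signals of 497, 562 and 535 on the untreated arrays and 22.5 and 18.7 on the glucosamine arrays. Every glucosamine array lay far below every untreated array, a 25.9-fold fall (log2 fold change -4.69 ± 0.13 SE, adjusted p = 2.38e-09, limma). Cdca3, which helps cells enter mitosis, went from 441, 510.4 and 473 to 20.1 and 13.1 (29.3-fold), and Ccna2, the cyclin of S phase and mitotic entry, from 244, 222 and 251 to 10.8 and 8.07 (25.6-fold). The ubiquitin-conjugating enzyme of the anaphase-promoting complex, Ube2c, fell from 342, 343 and 328 to 13.9 and 13.7. Pttg1 (securin), which holds sister chromatids together until anaphase, fell from 243, 296 and 260.4 to 10.8 and 13.8. The kinesins of cytokinesis were lower by a similar amount: Kif20a went from 502, 515 and 502 to 33.5 and 21.4 and Kif23 from 208, 198 and 186 to 12.2 and 11.9. The spindle checkpoint kinase gene Ttk and the kinetochore gene Cenpf came to or near the floor, with signals of 4.94 and 3.1 for Ttk against 99.9, 111 and 106 untreated, at least 18.5-fold lower, and 6.41 and 1.04 for Cenpf against 124, 135 and 147, at least 22.4-fold lower. The 5 largest falls among genes in no list were those of Pimreg, Depdc1, Pbk, Shcbp1 and Ska1, which were chosen for their size and are known from dividing cells. They gave 73.7 to 119.7 on the untreated arrays and were under the floor on both glucosamine arrays.

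The promoters of these mitotic genes hold short sequences that are known from such genes, so their shares are a description and no independent support. In mitotic genes, CCAAT boxes are bound by the factor NF-Y and a TTTGAA element near the start is bound by the DREAM repressor complex and its activating counterparts. Both were searched on either strand in the 300 bases from 250 before to 50 after the start given by RefSeq (build GRCr8). CCAAT was found in 30 of the 37 list members with a promoter (81.1%) and in 37.7% of all 27457 promoters, and TTTGAA in 27 of 37 (73.0%) against 18.1%. Among the 35 called members with a promoter, 28 held CCAAT and 26 TTTGAA. The uncalled Cdc25b and Cenpa both held CCAAT, and Cenpa also TTTGAA. Whether the motifs go with the fall was not tested. The 250 bases before the start of Ccnb2 (chr8:79981659-79981908) and of Kif23 (chr8:71320585-71320834), both on the minus strand, show the arrangement, with both motifs in capitals and a CCAAT box on the opposite strand reading ATTGG:
Ccnb2: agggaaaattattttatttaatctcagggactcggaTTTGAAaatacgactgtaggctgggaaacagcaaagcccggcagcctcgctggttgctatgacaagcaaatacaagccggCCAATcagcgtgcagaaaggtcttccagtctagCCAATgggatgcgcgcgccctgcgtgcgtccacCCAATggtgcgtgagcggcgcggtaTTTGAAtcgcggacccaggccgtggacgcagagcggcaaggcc
Kif23: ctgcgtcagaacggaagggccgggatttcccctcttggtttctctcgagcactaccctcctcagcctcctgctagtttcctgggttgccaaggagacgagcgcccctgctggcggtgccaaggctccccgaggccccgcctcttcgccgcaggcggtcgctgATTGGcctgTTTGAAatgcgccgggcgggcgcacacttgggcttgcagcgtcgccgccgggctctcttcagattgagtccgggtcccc
Ccnb2 holds 3 CCAAT boxes, with first bases 134, 101 and 68 before the start, and a TTTGAA that begins 43 before it, besides a further one at 214. In Kif23 the CCAAT box and the TTTGAA begin 88 and 79 before the start.

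DNA replication genes fell too, by less. Of 36 tested, 24 fell and none rose (median log2 fold change -1.12). The largest falls were in Pclaf, a partner of the replication clamp PCNA, from 383, 360.2 and 378 to 14.2 and 12.3 (28.2-fold, log2 fold change -4.82 ± 0.12 SE, adjusted p = 2.15e-09), and in the thymidine kinase gene Tk1, from 254, 279.6 and 289 to 17.5 and 8.96. The helicase subunit gene Mcm5 fell 7.56-fold, from 90, 94.8 and 96.8 to 12.2 and 12.6, and Rrm1, of ribonucleotide reductase, 3.12-fold, from 319, 397 and 367 to 122 and 109. The arrays of both groups were apart for each of the 4, as for every called gene. E2F sites of these genes were searched as TTTCCCGC and TTTGGCGC: the first stood in 5 of 34 promoters (14.7%) against 1.03% of all promoters, and the second in 8 of 34 (23.5%) against 0.521%. Mcm5 holds both, and the 250 bases before its start (chr19:13488563-13488812, plus strand) are shown with them in capitals, the second motif reading GCGCCAAA on the opposite strand:
Mcm5: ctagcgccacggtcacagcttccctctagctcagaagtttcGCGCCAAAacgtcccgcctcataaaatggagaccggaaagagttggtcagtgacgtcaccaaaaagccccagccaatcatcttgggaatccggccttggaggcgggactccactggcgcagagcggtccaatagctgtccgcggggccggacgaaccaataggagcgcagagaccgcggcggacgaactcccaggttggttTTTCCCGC
The first motif ends at the last base before the start.

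Regulators of the cell cycle did not move as 1 group: of 30 tested G1 cyclins, CDK inhibitors, E2F factors and p53 targets, 4 rose and 8 fell. Cdkn1c, a CDK inhibitor, rose 2.58-fold, from 135, 124 and 136 to 326 and 353. The CDK inhibitor genes Cdkn2a and Cdkn2c fell, from 175, 201 and 196 to 72.9 and 67.9 and from 300.0, 289 and 301 to 139.8 and 107. Cdkn3, a phosphatase of CDKs that is itself highest in dividing cells, fell 13.3-fold, from 669, 807 and 781 to 61.4 and 52. Gadd45b, a stress gene, fell from 327, 331 and 360.1 to 87.6 and 90.8. E2f8, a repressor of the E2F family, was low throughout, with 15.1, 16.4 and 10.4 on the untreated arrays, and reached the floor with glucosamine (at least 2.4-fold lower, adjusted p = 0.0043), a call that was lost with a floor at the 40th percentile.

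**Figure D2:**
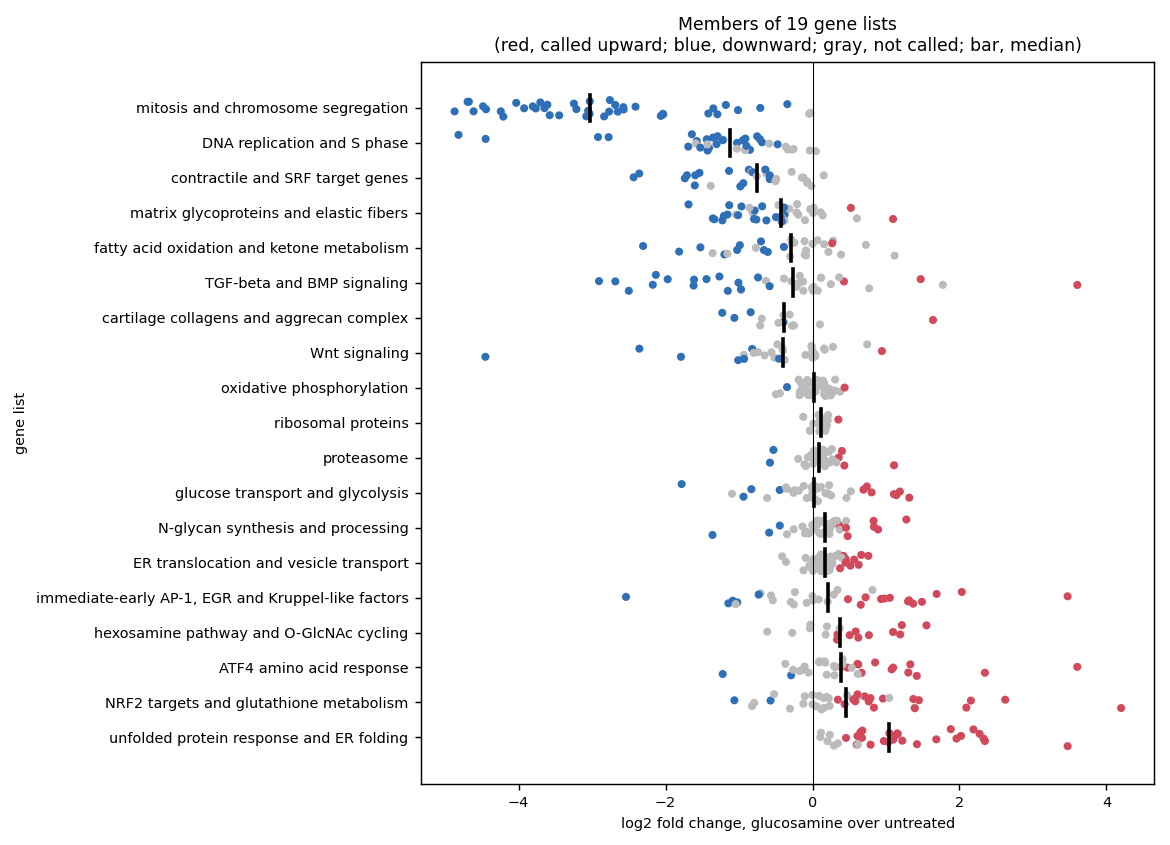
Log2 fold change of each tested member (x axis, glucosamine over untreated) for 19 gene lists (y axis), with members called upward in red, called downward in blue and not called in gray, and the list median as a black bar. Mitosis lies lowest with a median of -3.03, the unfolded protein response highest with 1.04, and oxidative phosphorylation and ribosomal proteins are mostly gray near 0.

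In the other direction, genes of the unfolded protein response rose together. Of 32 tested, 25 rose and none fell (median log2 fold change 1.04), and all 32 had a fold change above 0. Ddit3, which encodes CHOP, gave 345, 313 and 317 on the untreated and 1729 and 1576 on the glucosamine arrays, a 5.08-fold rise (log2 fold change 2.35 ± 0.26 SE, adjusted p = 9.18e-05). Atf3, a stress-induced transcription factor, rose 11.1-fold, from 26.2, 28.8 and 28.3 to 338 and 280.4. The ER chaperone gene Hyou1 went from 214, 176 and 186 to 827 and 1117. All glucosamine arrays of these 3 genes lay above all untreated arrays, with the 2 glucosamine arrays of Hyou1 further from each other than those of Ddit3. Creld2 (4.56-fold), Sdf2l1 (4.06-fold) and Ero1b (4.83-fold), which act in ER protein folding and disulfide bond formation, rose with tight replicates: Creld2 from 426, 467 and 454 to 2192 and 1912, Sdf2l1 from 447, 437 and 446 to 1819 and 1778, and Ero1b from 37, 34.2 and 36.8 to 173 and 174. The ER stress response element of chaperone genes, CCAAT and CCACG with 9 bases between them, was found in 8 of the 25 list members with a promoter (32%). Over all 27457 promoters it was found in 21 (0.0765%). The 8 were Hspa5, Hsp90b1, Calr, Canx, Dnajc3, Creld2, Xbp1 and Ero1b. Of the 8, 7 belonged to genes that rose, against 20 of all 25 members with a promoter. A second motif, TGACGTGG, bound by ATF6 and XBP1, stood in 1 of 25 (4%, Hyou1) against 0.637% of all promoters. The 250 bases before the starts of Creld2 (chr7:121789134-121789383) and Hyou1 (chr8:53602632-53602881), both on the plus strand, carry these matches in capitals, with that of Creld2 on the opposite strand:
Creld2: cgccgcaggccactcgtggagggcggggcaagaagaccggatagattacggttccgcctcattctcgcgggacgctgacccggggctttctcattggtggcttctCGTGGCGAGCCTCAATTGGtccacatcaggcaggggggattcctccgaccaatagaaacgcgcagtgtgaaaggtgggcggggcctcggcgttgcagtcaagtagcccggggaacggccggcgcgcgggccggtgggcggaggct
Hyou1: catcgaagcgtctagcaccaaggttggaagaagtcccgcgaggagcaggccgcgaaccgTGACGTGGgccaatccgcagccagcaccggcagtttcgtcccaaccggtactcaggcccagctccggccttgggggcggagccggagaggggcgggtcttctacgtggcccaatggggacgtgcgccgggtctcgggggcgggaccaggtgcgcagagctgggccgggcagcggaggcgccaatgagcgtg
The match in Creld2 begins 145 before the start and that in Hyou1 191 before it.

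Downstream steps of the secretory pathway rose in part. Of 50 tested genes of ER translocation and vesicle transport, 10 rose and none fell (median 0.17). They included Sec61a1, the translocon channel, from 862, 900.3 and 910.4 to 1491 and 1524, Srprb, of the signal recognition particle receptor, from 561, 554 and 549.6 to 834 and 882, and Sec11c, of the signal peptidase, from 659, 717 and 730.5 to 1102 and 1119.9. Of 37 genes of N-glycan synthesis and processing 8 rose and 3 fell, and 2 enzymes that extend the same lipid-linked glycan went opposite ways: the mannosyltransferase Alg12 rose 2.42-fold, from 81.1, 74.6 and 81.2 to 204 and 179, and the glucosyltransferase Alg8 fell 2.57-fold, from 201, 228 and 201 to 79.4 and 83.9. Of 33 genes of the ATF4 amino acid response, 13 rose and 2, Cth and Psat1, fell (median 0.39). Asns, Phgdh, Psph, Mthfd2, Slc7a5 and Chac1 were among the 18 that were not called. The ATF4 motif TGATGNAAT stood in 2 of 29 promoters (6.90%, Fgf21 and Nupr1), neither of a called gene, and in 1.05% of all promoters. Gdf15, a secreted stress cytokine, was at or near the floor on the untreated arrays with 5.62, 7.51 and 4.31 and reached 55.8 and 104 with glucosamine, at least 12.2-fold higher. Slc3a2, the heavy chain of amino acid transporters, rose 2.47-fold, from 851, 808 and 887 to 2150.2 and 2038, and the secreted glycoprotein gene Stc2 2.11-fold, from 57.7, 58.5 and 51.9 to 111 and 125. Cth, which makes cysteine, fell 2.33-fold, from 191, 178 and 181 to 76.7 and 80.4. Of 19 cytosolic tRNA synthetases 4 rose and none fell, among them Wars1 (2.24-fold) and Sars1 (1.73-fold).

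Genes of the oxidative stress response rose in part. The factor NRF2 drives detoxifying and antioxidant enzymes, and of 40 tested NRF2 targets and glutathione genes 18 rose and 2, Ephx1 and Sod2, fell (median 0.45). Gclc, Gclm, Gsr, Txn1 and Gpx1 were among the 20 that were not called. The aldo-keto reductase gene Akr1b8 had signals of 105, 122 and 111 on the untreated arrays and 2078 and 2056 on the glucosamine arrays. With nearly equal glucosamine arrays, the rise was 18.4-fold (log2 fold change 4.20 ± 0.09 SE, adjusted p = 9.05e-10). Sulfiredoxin (Srxn1) rose 6.16-fold, from 192, 180.5 and 181 to 1105 and 1168, the quinone reductase Nqo1 4.27-fold, from 542, 572 and 559 to 2434 and 2325, and heme oxygenase Hmox1 2.73-fold, from 874, 879 and 916 to 2341 and 2518. Osgin1 rose from 8.81, 8.22 and 4.81 to 33.4 and 33, at least 4.46-fold, and the efflux transporter gene Abcc4 from 56.1, 60.3 and 52.2 to 173 and 125. TGACNNNGC, the core of the antioxidant response element, was found in 8 of 32 list promoters (25%) and in 12.2% of all promoters, and 4 of the 8 belonged to genes that were called (Sod2 downward), against 17 of the 32.

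Most genes that handle glucosamine itself rose. Of 17 tested genes of the hexosamine pathway and O-GlcNAc cycling, 10 rose and none fell (median 0.37). Gnpda1, the deaminase that returns glucosamine 6-phosphate to glycolysis, rose 2.29-fold, from 174, 162 and 178 to 371 and 412 (log2 fold change 1.19 ± 0.16 SE, adjusted p = 2.86e-04). Amdhd2, which removes the acetyl group from N-acetylglucosamine 6-phosphate, went from 51.6, 51.6 and 60.1 to 136 and 186, and Renbp, an epimerase of N-acetylglucosamine, from 96.6, 94.1 and 95.5 to 222 and 222. Both stood higher on each glucosamine array than on any untreated array, but without glucosamine replicate b their adjusted p rose to 0.092 and 0.051, and the count of the list fell from 10 to 6. Among the enzymes of the forward pathway, Gfpt2, an isoform of its first enzyme, rose 2.14-fold, from 96, 89.1 and 89.9 to 204 and 188, and the acetyltransferase gene Gnpnat1 1.54-fold, from 279, 281 and 277 to 453 and 408. Nans, of sialic acid synthesis, rose from 337, 351 and 357 to 611 and 575. Ogt, which attaches O-GlcNAc, rose from 308, 346 and 324 to 492 and 487, while Oga, which removes it, had 292, 308 and 290.4 untreated and 352 and 418 with glucosamine and did not pass the test (adjusted p = 0.66).

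The synthesis of glycosaminoglycan chains changed in both directions, with 6 of 38 tested genes called upward and 9 downward. UDP-glucose pyrophosphorylase (Ugp2) rose 1.56-fold, from 943, 978 and 1025 to 1551 and 1502 (a call lost under the methods' test), and B3gat3, which completes the linker that starts each chain, 2.24-fold, from 150.4, 127 and 139 to 291 and 330.1. UDP-glucose dehydrogenase (Ugdh), which makes UDP-glucuronic acid, had 699.6, 722 and 714 untreated and 672 and 549 with glucosamine and did not pass the test (adjusted p = 0.22). Hyaluronan synthase 2 (Has2) fell 3.88-fold, from 47.5, 56.8 and 59 to 16.6 and 11.7 (adjusted p = 0.0026). Among 14 genes of the response to osmotic stress 4 rose and 1 fell. The 2 largest rises belonged to inositol supply: Isyna1, inositol phosphate synthase, rose 9.28-fold, from 41.5, 38.6 and 39.1 to 366 and 371, and Slc5a3, an inositol transporter, 4.65-fold, from 57.3, 56.3 and 53 to 280.0 and 238. The kinase gene Sgk1 rose 2.26-fold and the aldose reductase gene Akr1b1 1.73-fold, from 868, 878 and 874 to 1569 and 1451.

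Sensors of sugar and nutrient supply were among the genes with the largest changes. The factor MondoA responds to hexose phosphates, and its targets Arrdc4 and Txnip, alpha-arrestins that limit glucose uptake, rose: Arrdc4 7.51-fold, from 24.9, 18.4 and 21.5 to 158 and 164, and Txnip 3.98-fold, from 572, 487 and 523 to 2203 and 1996. The call of Txnip did not hold without glucosamine replicate a (adjusted p = 0.055). Of the 11 tested genes of that list 4 rose and 1 fell. The spaced motif of its response element, CANNNG, 5 free bases and CANNNG again, stood in 2 of 9 promoters (22.2%) and in 14.0% of all promoters. The largest rise of any gene was in Ddit4l, an inhibitor of mTOR signaling, from 12.7, 14.8 and 10.4 on the untreated arrays to 518 and 490.1 on the glucosamine arrays (40.3-fold, log2 fold change 5.33 ± 0.13 SE, adjusted p = 1.93e-09). On the same list of 22 genes, 4 rose (18.2%) and 3 fell (13.6%), against 10.4% and 9.37% of all genes. Among them, Rragd, a GTPase that links amino acids to mTOR, went from under the floor to 35.3 and 43.8 (at least 6.88-fold). The ubiquitin ligase gene Trim63 went from 13.6, 14.3 and 12.7 to 63.8 and 60. Pik3ip1, an inhibitor of PI3 kinase, fell 2.89-fold, from 174, 170.1 and 161 to 58.4 and 58.1. The autophagy receptor gene Sqstm1 rose 2.44-fold, from 946, 964 and 986 to 2433 and 2273, as 1 of 3 of 24 autophagy genes that rose. In glucose transport and glycolysis 7 of 37 genes rose (18.9%) and 4 fell (10.8%), the latter near the 9.37% of all genes. The glucose transporter gene Slc2a1 rose 2.15-fold, from 290.4, 280.0 and 293 to 636 and 604, Pfkfb3, which makes the activator of phosphofructokinase, 2.49-fold, and pyruvate carboxylase (Pc) 2.28-fold. The muscle enolase gene Eno3 fell 3.44-fold, from 301, 331 and 321 to 90.4 and 94.3.

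Fatty acid oxidation moved down, with 10 of 30 genes called downward and 1 upward (median -0.29). Hadh, of the mitochondrial beta-oxidation spiral, fell 3.52-fold, from 276, 250.2 and 255 to 79.3 and 69. Acaa2, Etfb and Echs1, of the same route, fell 2.3-, 2.04- and 1.98-fold. Angptl4, an inhibitor of lipoprotein lipase, fell from 339, 260.3 and 289.6 to 58.7 and 60.5. In lipid synthesis and storage 8 of 32 genes rose and 1 fell, led by the cholesterol exporter gene Abcg1, from 12.7, 8.75 and 14.5 to 86.5 and 86.1 (7.35-fold) on the probe set that stands for it, and by the lipid droplet coat gene Plin2, from 377, 377 and 394 to 807 and 796. Neither rise was seen on all probe sets: another Abcg1 probe set had 37, 42.2 and 45.9 untreated against 39.7 and 47.1 (adjusted p = 1), and another Plin2 probe set 37.4, 36.5 and 35.5 against 42.1 and 35.9 (adjusted p = 1). Among other mitochondrial genes, 1 of 45 of oxidative phosphorylation rose and 1 fell (2.22% each, median 0.02), fewer than the 10.4% and 9.37% of all genes. Of 19 of the tricarboxylic acid cycle 2 rose (10.5%), near the share of all genes, and 1 fell (5.26%). Of 25 ribosomal protein genes 1 rose (4%) and none fell, and of 36 proteasome genes 4 rose (11.1%) and 2 fell (5.56%).

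The cartilage matrix changed gene by gene. Of 14 tested genes of the cartilage collagens and the aggrecan complex 4 fell and 1 rose. Type II collagen (Col2a1) gave 3473, 3817 and 4165 on the untreated and 2973 and 3173 on the glucosamine arrays. Its glucosamine arrays lay below all untreated arrays, a difference that did not pass the test (log2 fold change -0.31 ± 0.12 SE, adjusted p = 0.14) but did with quantile normalization (adjusted p = 0.0034). The other Col2a1 probe sets had larger differences: one fell from 93.6, 114 and 112 to 34.4 and 49.5 (2.57-fold) and was called (adjusted p = 0.028), and one went from 262, 299.6 and 314 to 123 and 164 without a call (adjusted p = 0.17). Aggrecan (Acan) had 253, 226 and 242 untreated and 223 and 296 with glucosamine, so that its groups overlapped (log2 fold change 0.10 ± 0.18 SE, adjusted p = 1). Link protein (Hapln1) fell 2.34-fold, from 643, 657 and 686 to 316 and 253 (log2 fold change -1.23 ± 0.17 SE, adjusted p = 3.49e-04). Type IX collagen (Col9a1) fell 1.79-fold, from 1710.1, 1686 and 1896 to 1035 and 934, and versican (Vcan) 2.09-fold, from 147, 158 and 160.3 to 79.2 and 69.5. Cd44, the hyaluronan receptor, rose 3.12-fold, from 346, 335 and 334 to 1063 and 1044. Further matrix genes were not called. Col11a1 had 2313, 2564 and 2655 untreated and 2040.4 and 2141 with glucosamine (adjusted p = 0.1), Col6a1 had 1418, 1543 and 1505 against 1173 and 1307 (adjusted p = 0.15), and Comp had 996, 928 and 986 against 640.2 and 773 (adjusted p = 0.058, and 0.043 when adjusted over genes). Biglycan (Bgn), with 2655, 2891 and 3067 against 2806 and 3079, and type III collagen (Col3a1), with 2517, 2741 and 2872 against 2580.1 and 2860.2, had log2 fold changes of 0.04 and 0.01. The paper lists a biglycan entry of much lower signal that fell with glucosamine, and which probe set gave it was not determined here. Col10a1, the collagen of hypertrophic chondrocytes, was low, with 14.7, 13.9 and 18.8 against 11.4 and 7.98 (adjusted p = 0.8).

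Other matrix genes that changed mostly fell. Of 20 other collagens 5 fell and none rose, among them Col8a1 (4.71-fold, from 617, 712 and 683 to 151 and 133), Col14a1 (3.53-fold, from 756, 776 and 816 to 220.1 and 224), Col16a1 (2.05-fold) and Col12a1 (1.85-fold). The cross-linking enzyme gene Loxl3 fell 2.47-fold, from 1012, 1187 and 1156 to 463 and 441. Of 39 matrix glycoproteins and elastic fiber genes 19 fell and 2 rose (median -0.43). Elastin (Eln) fell 3.22-fold, from 215, 186 and 205 to 54 and 72.6, and fibrillin (Fbn1), its scaffold, 2.31-fold, from 852, 933 and 954 to 389 and 402. The laminin chain gene Lamb1 fell from 44, 47.5 and 45.5 to 18.1 and 17.5, and the matricellular gene Ccn1 from 295, 269.6 and 281 to 93.9 and 133, whose adjusted p was 0.012, or 0.14 without glucosamine replicate a. The count of 19 was 9 without glucosamine replicate a, 11 without glucosamine replicate b and 12 without untreated replicate c.

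**Figure D3:**
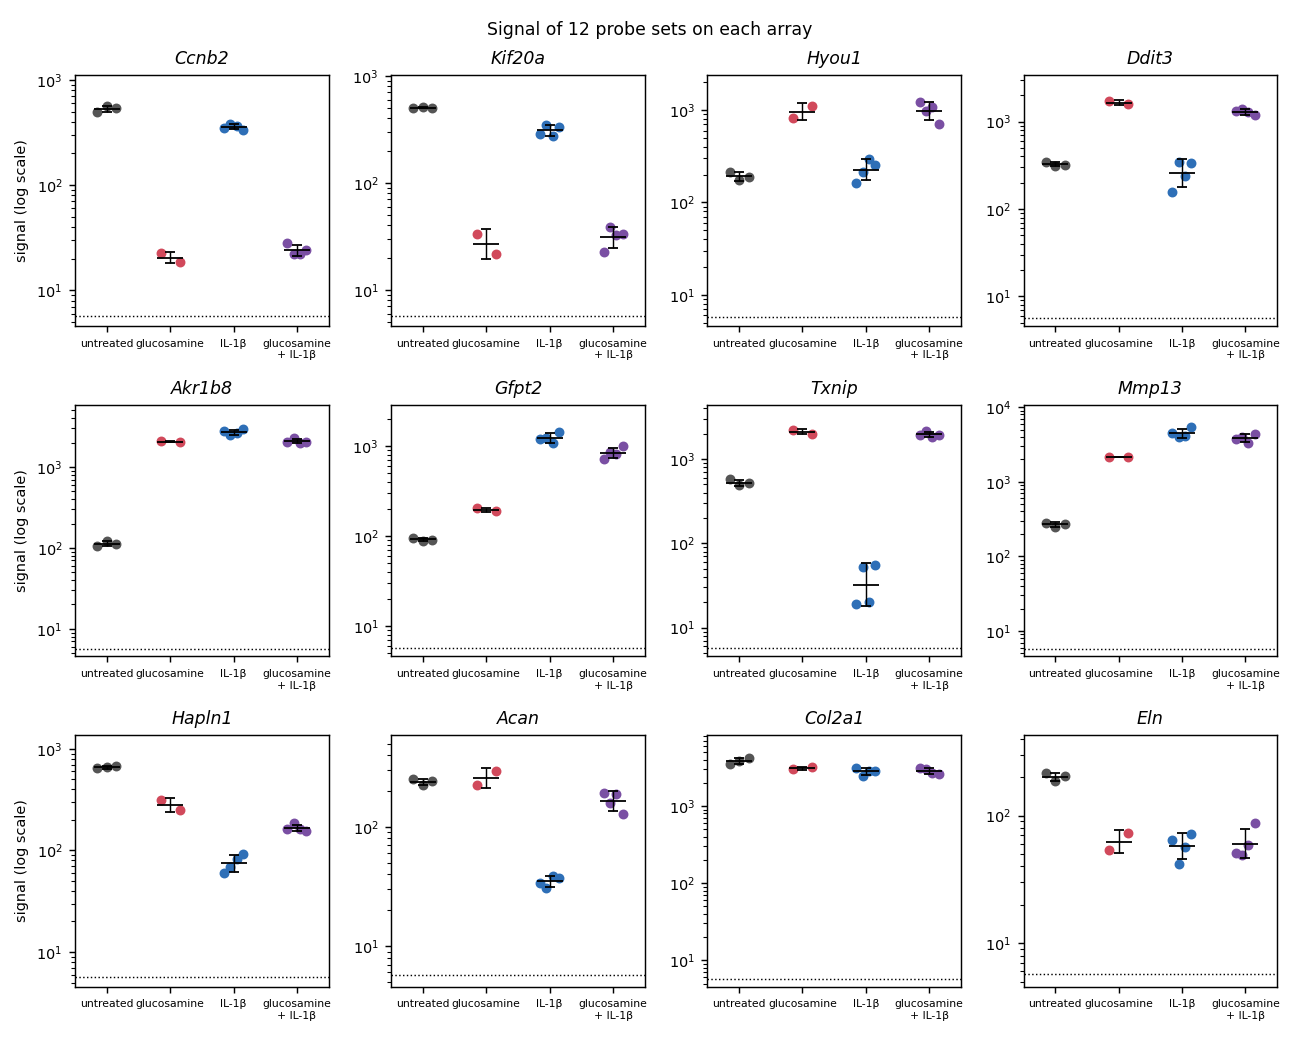
Signal on each of the 13 arrays (y axis, log scale, values under the floor drawn at it) for 12 genes in the 4 groups (x axis), with a point per array, a bar at the mean log2 signal and error bars of 1 SD, and the floor of 5.71 dotted. Glucosamine arrays lie far below the untreated arrays for Ccnb2 and Kif20a and above them for Hyou1, Ddit3, Akr1b8, Gfpt2, Txnip and Mmp13, while those of Acan overlap with the untreated arrays.

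Proteases of the matrix separated by member. Of 32 matrix metalloproteinases and ADAM proteases 4 rose and 9 fell. Mmp13, the main collagenase for type II collagen, gave 282, 248 and 275 on the untreated arrays and 2127 and 2127 on the glucosamine arrays, a rise of 7.94-fold (log2 fold change 2.99 ± 0.14 SE, adjusted p = 1.89e-07). Stromelysin (Mmp3) rose 2.19-fold, from 804, 945 and 935 to 2217 and 1716 (a call lost under the methods' test), and Mmp2 1.37-fold, from 1047, 953 and 1042 to 1321 and 1456, the latter with an adjusted p of 0.0071, or 0.097 without glucosamine replicate b. The aggrecanases split. Adamts4 rose 1.41-fold, from 69.2, 70 and 71.9 to 99.4 and 99, and Adamts5 fell 2.3-fold, from 1160.3, 1225 and 1322 to 603 and 475. Adamts1 fell 2.26-fold, from 437, 444 and 492 to 203 and 201, and Adamts12 11.8-fold, from 104, 104 and 103 to 7.51 and 10.2. The inhibitors Timp1, with 1674, 1838 and 1849 untreated against 1867 and 1841 with glucosamine, and Timp2, with 3005, 3271 and 3518 against 3501 and 3437, were not called (adjusted p = 1 and 0.93). Serpinb2, an inhibitor of plasminogen activators, rose 11.6-fold, from 14.2, 14.3 and 17.3 to 198 and 158.

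Many genes of the contractile cytoskeleton fell. Of 29 tested contractile genes and targets of serum response factor 15 fell and none rose (median -0.76). The myosin kinase gene Mylk went from 157, 159 and 159 to 28.5 and 30.1 (5.41-fold, log2 fold change -2.43 ± 0.32 SE, adjusted p = 2.72e-04), and the light chain gene Myl9, its substrate, from 370.4, 351 and 338 to 65.8 and 72.1. Tropomyosin (Tpm1) fell 3.04-fold, from 761, 817 and 869 to 256 and 281, Fhl2 3.27-fold and transgelin (Tagln) 2.2-fold, from 1371, 1457 and 1535 to 666 and 656. Such genes also mark smooth muscle cells and pericytes, and of the 9 markers of those cells 4 fell and 1 rose, their summed signal was 2629 to 2924 untreated and 1642 to 1946 with glucosamine, and Rgs5 was at the floor on all 5 arrays. The part of such cells in the result was not tested. Integrins, which tie the cytoskeleton to the matrix, split: Itga3 rose 18.4-fold, from 17.8, 11 and 11.8 to 197 and 300.5, while the collagen-binding chains Itga1 and Itga11 fell, from 329, 410.3 and 376 to 96.3 and 64.1 and from 1385, 1574 and 1590.1 to 803 and 837. In all, 2 of 16 integrins rose (12.5%) and 4 fell (25%), against 10.4% and 9.37% of all genes, and 2 of the 16 were at the floor on all 5 arrays.

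Genes of growth factor signaling were called downward more often than upward. In TGF-β and BMP signaling 15 of 38 genes fell and 3 rose (median -0.26). Bmp4, a ligand that promotes cartilage formation, fell 6.42-fold, from 492, 492 and 501 to 82.7 and 71.8 (log2 fold change -2.68 ± 0.13 SE, adjusted p = 2.86e-07), Bmp6 4.38-fold, from 58.1, 66 and 58.6 to 13.6 and 14.2, and Bmp3 from 49.6, 56.6 and 48.2 to 6.68 and 7.03, close to the floor. Gdf10 went from 34.1, 33.6 and 29.5 to under the floor, and follistatin (Fst), an activin inhibitor, from 185, 159 and 171 to 43.9 and 32.9. Of 15 genes of the insulin-like growth factor system 2 rose and 4 fell. Igf1 itself went from 25.2, 23.8 and 23.5 to under the floor, at least 4.23-fold lower. Its binding proteins split: Igfbp3 fell from 87.2, 80.2 and 77.4 to 9.57 and 5.27, at least 11-fold, and Igfbp5 rose 3.21-fold, from 179, 167 and 177 to 468 and 669.8. Of 33 Wnt genes 7 fell and 1 rose, and the secreted modulator Sfrp2 fell 21.9-fold, from 275, 207 and 231 to 8.22 and 14.1, and the co-receptor Lrp6 3.46-fold. Among 40 ligands and receptors of the FGF, VEGF, PDGF and EGF families 7 rose and 10 fell. Members of the VEGF family went opposite ways: Vegfa rose 2.67-fold, from 187, 173 and 191 to 449 and 536, and Vegfd fell 8.27-fold, from 168, 153 and 143 to 20.4 and 17. Their co-receptor Nrp1 fell 5.44-fold, from 419.9, 404 and 428 to 79.3 and 74.3, and Angpt1, the ligand of TIE2, from 63.9, 66.6 and 64.6 to 11.6 and 6.74. The FGF genes split as well, with Fgf1 falling from 37.7, 41.9 and 46.1 to 8.63 and 9.36 and Fgf9 rising from 28.9, 29.6 and 26.5 to 106 and 86.2. Epiregulin (Ereg) rose from 7.43, 8.61 and 5.53 to 45.3 and 47.8, at least 6.5-fold.

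Genes of inflammation held strong changes and, for some members, poor agreement between the glucosamine arrays. Of 24 chemokines and receptors 2 rose (8.33%) and 4 fell (16.7%), and of 39 cytokines and cytokine receptors 1 rose (2.56%) and 7 fell (17.9%). Over all genes 10.4% were called upward and 9.37% downward. On all 5 arrays 7 of the 24 and 11 of the 39 were at the floor, and were tested only because an array with IL-1β exceeded it. Cxcl12, a homing chemokine, fell 22.5-fold, from 407, 350.5 and 410.0 to 16.6 and 17.8 (log2 fold change -4.50 ± 0.24 SE, adjusted p = 4.97e-07). The scavenging chemokine receptor gene Ackr4 and the membrane-bound chemokine gene Cx3cl1 fell 6.41- and 4.74-fold. The alarmin gene Il33 went from 109, 89.7 and 103 to 4.53 and 11.2 (adjusted p = 0.0045, limma). That call did not hold without glucosamine replicate a (log2 fold change -3.17). Another Il33 probe set went from 158, 136 and 147 to 6.05 and 6.95 (22.6-fold, adjusted p = 1.89e-07, limma). Ccl2, which draws monocytes, rose 3.2-fold, from 217, 223 and 224 to 780.4 and 642. Il1b stayed under the floor throughout, and Il6 had 57.2, 58.5 and 56.2 untreated and 62.4 and 44.4 with glucosamine (adjusted p = 0.94). In prostaglandin metabolism, Ptgs1 (cyclooxygenase 1) rose 3.22-fold, from 171, 199.6 and 182 to 641 and 545, the degrading enzyme Hpgd fell 9.15-fold, from 205, 185 and 198 to 18.3 and 25, and the phospholipase gene Pla2g2a fell 4-fold, from 185, 165 and 176 to 53.6 and 35.8.

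For several of these genes the 2 glucosamine arrays disagreed. Ccl20 gave 246 and 29.7 on replicates a and b against 25.2, 28.6 and 26.9 untreated, Cxcl1 gave 523 and 76 against 74.9, 67.4 and 72.7, and Ccl7 gave 101 and 37.4 against 30.9, 31.2 and 34.5. In each of the 3, replicate a lay well above the untreated arrays and replicate b close to them, and none passed the test (adjusted p = 0.096, 0.11 and 0.071). Ptges, which makes prostaglandin E2, gave 82 and 11.9 against 30.1, 34.4 and 33.8, so that replicate a lay above and replicate b below all untreated arrays. With replicate a alone its log2 fold change was 1.33 (adjusted p = 8.14e-04), and with replicate b alone -1.46 (adjusted p = 4.89e-04). Mmp9 gave 21.2 and 1.04 against values under the floor untreated, and cyclooxygenase 2 (Ptgs2) 152 and 82.2 against 59.2, 60 and 66.5 (adjusted p = 0.072). Ptgs2 was called upward with a replicate block (adjusted p = 0.013) and without both replicate d arrays (adjusted p = 0.019). Of 15574 probe sets with a signal of at least 4 times the floor on the brighter glucosamine array, 103 were 2-fold higher on replicate a and 65 on replicate b, and 94.6% were within 1.5-fold. Igfbp6, with 361 and 128, was likewise higher on replicate a, though its other probe set gave 101 and 92.7, and Phldb1, with 52.9 and 167, and Frg1, with 28.7 and 84.3, were higher on replicate b.

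**Figure D4:**
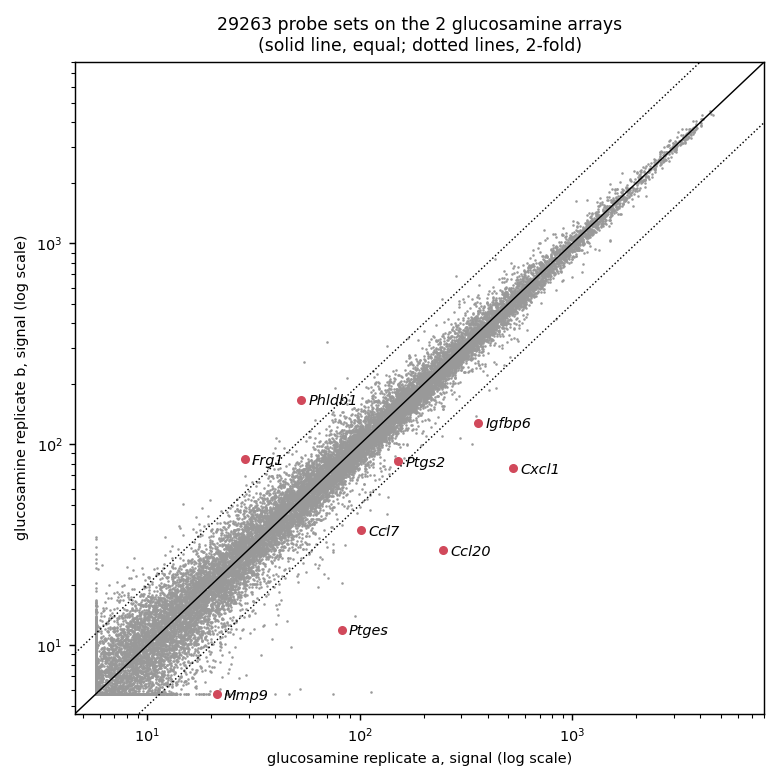
Signal of 29263 probe sets on glucosamine replicate a (x axis) and replicate b (y axis), both on log scales with values under the floor drawn at it, with a solid line at equality, dotted lines at 2-fold, and 9 genes in red. Most points lie between the dotted lines, with Ccl20, Cxcl1, Ccl7, Ptges and Mmp9 to the right of them and Phldb1 and Frg1 to the left.

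Transcription factors of the immediate-early response rose more often than they fell, with 13 of 33 called upward and 5 downward. The AP-1 member gene Fosl1 rose 4.09-fold, from 37.3, 40.4 and 37.8 to 142 and 175, the MAP kinase phosphatase gene Dusp1 2.58-fold, from 564, 576 and 569 to 1517 and 1427, and the Kruppel-like factor gene Klf2 3.22-fold, from 144, 133 and 129 to 412 and 462. Hmga1, an architectural chromatin protein, rose 7.53-fold, from 87.8, 82.9 and 79.7 to 522 and 754, and the clock factor gene Npas2 3.08-fold. The transferrin receptor gene Tfrc fell 2.34-fold, from 250.2, 259.9 and 258 to 98 and 123. Genes outside the lists were among those with the largest rises. Slc25a48, a mitochondrial carrier, went from under the floor to 80.3 and 86.5, at least 14.6-fold higher. Fxyd2, a regulator of the sodium pump, rose from 20.5, 17.3 and 26 to 238 and 228, Chchd10, a mitochondrial protein, from 1.61, 5.07 and 11.7 to 71.8 and 88.8, Mreg from 9.4, 10 and 11 to 84.5 and 79.2 and Eeig1 from 19.9, 22.8 and 25.6 to 206 and 181.

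A further set of named genes had calls that did not hold when 1 array was left out. These calls are of the probe set that stands for each gene. With all arrays, other probe sets of Timp3 (1.8-, 2.22- and 2.71-fold), Col1a2 (1.68-fold), Aqp1 and Fzd4 were called in the same direction. For Bcl2l1, Slc6a9 and Hlf some were and some were not, and those of Plaur and Chst12 were not called. Of the cartilage and matrix genes, Col9a2, of type IX collagen, went from 484, 474 and 485 to 375 and 357 (adjusted p = 0.0041, limma), a call lost without glucosamine replicate b. Col1a2, of type I collagen, went from 1962, 2109 and 2173 to 1354 and 1689 (adjusted p = 0.044, limma). The call of Col1a2 was lost without glucosamine replicate a and without any 1 of the untreated arrays. The tissue inhibitor gene Timp3 went up from 1287, 1330.1 and 1335 to 2081 and 1887 (adjusted p = 0.004, limma), a call lost without glucosamine replicate a. Osteopontin (Spp1) had 2706, 3263 and 3372 against 4577 and 4328 (adjusted p just under the threshold). The call of Spp1 was lost whichever of the 5 arrays was left out. Spp1 is 1 of 6 tested osteoblast markers, of which 1 rose, Spp1 itself, and 1 fell, Ibsp. The summed signal of the 6 was 2786 to 3455 untreated and 4381 to 4615 with glucosamine. Most of that sum is Spp1, so its rise does not describe the other markers, and Phex and Sost were at the floor. Nfkbia, the inhibitor of NF-kB, went down from 117, 143 and 120.3 to 96.7 and 66.7 (adjusted p = 0.028, limma). That call was lost without glucosamine replicate b, and also without untreated replicate b or c. Changes of these 5 genes were 1.31- to 1.57-fold. Their groups were apart, as were those of every called gene and of 56.8% of all genes. Among the other genes of the kind, Aqp1, Fzd4, Hlf, Mfap2, Adamts15 and Acta2 were lower with glucosamine and Plaur, Rgr, Hk2, Chst12, Bcl2l1 and Slc6a9 higher. Each of their calls was lost without 1 of the glucosamine arrays. Those of Mfap2 and Hlf were lost whichever of the 5 arrays was left out.

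The glucosamine effect was measured a further time on separate arrays, between flasks with glucosamine plus IL-1β and flasks with IL-1β alone. Of the 1424 genes that rose with glucosamine alone, 823 (57.8%) were also called upward there, against 15.8% of all genes tested, and 160 (11.2%) were called downward. Of the 1288 that fell, 732 (56.8%) were called downward, against 14.8% of all genes, and 89 (6.91%) upward. All 41 mitosis genes and all 24 replication genes that fell with glucosamine alone also fell there, and 23 of the 25 unfolded protein response genes that rose also rose. Of the 18 NRF2 list genes that rose, 6 rose again, and 5 of the genes called on that list were called in the opposite direction there. The size of the effect differed between both settings for 435 of the genes that rose and 457 of those that fell (difference of the glucosamine effects, adjusted p under 0.05 by limma, called for 11.8% of all genes). Over probe sets this difference was called for 2500 (8.54%). The calls of this difference share the glucosamine and untreated arrays with the calls they are counted among.

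**Figure D5:**
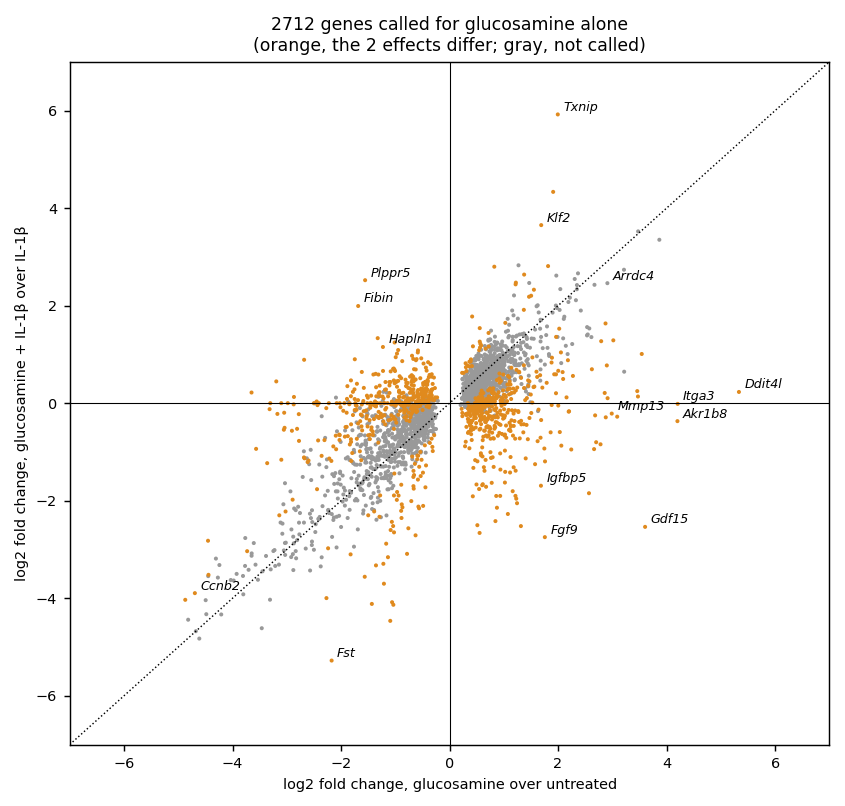
Log2 fold change by glucosamine with IL-1β present (y axis, glucosamine plus IL-1β over IL-1β alone) against that without (x axis, glucosamine over untreated) for the 2712 genes called for glucosamine alone, with genes whose effects differed in orange, the others in gray, and equality dotted. Many gray points lie near the dotted line, the orange points of Ddit4l, Akr1b8, Itga3 and Mmp13 lie between -0.37 and 0.23 on the y axis, and Gdf15, Fgf9, Plppr5 and Fibin changed in opposite directions.

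The signals of genes with opposite effects differed in the flasks with IL-1β alone as well. Gdf15 rose with glucosamine alone, from 5.62, 7.51 and 4.31 to 55.8 and 104, but IL-1β alone gave 266, 543, 453 and 429 and glucosamine plus IL-1β 149, 51.7, 89.1 and 36.1, a fall (log2 fold change -2.54 ± 0.40 SE, adjusted p = 6.12e-04). Fgf9 behaved alike, with 658, 632, 401 and 460.3 in IL-1β and 86.9, 81.9, 74.8 and 70.9 in both, close to the 106 and 86.2 of glucosamine alone. In both genes the flasks with glucosamine lay between the untreated and the IL-1β flasks. Hapln1 was the reverse: it fell with glucosamine alone to 316 and 253, had 59.4, 68.6, 83.3 and 92.3 with IL-1β, and stood higher with both, at 163, 186, 161 and 156. Fibin, with 403, 436 and 395 untreated and 129.6 and 126 with glucosamine, had 22.8, 26.3, 21.2 and 18.3 with IL-1β and 88, 86.8, 83.6 and 90.9 with both, and Plppr5 went from 293, 267 and 296 to 95 and 99 without IL-1β and from 1.59, 3.68, 6.34 and 5.56 to 32.6, 34.8, 31.2 and 36.4 with it. Acan, not called for glucosamine alone, had 33.7, 30.9, 38.8 and 37 with IL-1β and 193, 159, 189 and 129 with both (log2 fold change 2.24 ± 0.14 SE, adjusted p = 3.95e-07). Txnip had 18.9, 51.8, 19.9 and 55.8 with IL-1β and 1910.3, 2172, 1812 and 1954 with both, about the level of 2203 and 1996 reached with glucosamine alone. Mmp13 was already at 4545, 3939.5, 4121 and 5385 with IL-1β and at 3788, 4037, 3284 and 4375 with both, a difference that did not pass the test (log2 fold change -0.21 ± 0.11 SE, adjusted p = 0.22).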

How the data were processed

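RNA of rat chondrocytes was hybridized to Affymetrix Rat Genome 230 2.0 arrays. The deposited values are linear intensities, some below 0, that the authors scaled globally, which removes differences in total RNA. The labels name MAS5 and the study's methods also Probe Profiler with a scale of 100; which output was deposited is not given in the sources used here, and the array means are not 100. The 57 control probe sets were left out, values were floored at 5.71 (25th percentile of all values) and log2 was taken. All 13 arrays in 4 groups (3 untreated, 2 glucosamine, 4 IL-1β, 4 glucosamine plus IL-1β) were fitted with limma 3.58.1 in R 4.3.3 (intensity trend, 9 residual degrees of freedom), with Benjamini-Hochberg adjustment over 29263 probe sets, and adjusted p under 0.05 was called. The fits were tested on simulated data. The number of arrays limits the precision.

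Genes were named from the platform annotation (20826 probe sets with 1 gene, 436 with several, 9780 without), and the probe set with the highest mean log2 signal stood for a gene. Where the lower group held an array under the floor, the fold is given as a bound against it. Genes were named from the 15 largest called rises and falls without overlap between groups, the 6 largest called changes of each list, the 5 largest in either direction outside the lists and of the difference between both glucosamine effects, the 6 largest differences between the glucosamine arrays, and a set of cartilage and inflammation genes. Of 324 such genes 187 are described, a selection made after their values were seen. Members and lists were chosen with earlier results of these data known. Deviations of same-letter arrays of the IL-1β groups correlated at 0.375 (a), 0.449 (b), 0.533 (c) and 0.797 (d). Among a to c, arrays of different letters correlated at 0.333 to 0.561, so matching letters did not stand out there. Only the d arrays, which stood apart in scale, did. Whether the letters pair the arrays is therefore not settled, and the blocked fit is an alternative. Alternatives were another floor, quantile normalization, a filter on low values, array weights, the 5 arrays alone, a replicate block, the methods' analysis of variance and Tukey test, 1 probe set per gene, and leaving out arrays.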

Additional observations from a re-analysis of the deposited data

Results flagged for a closer look

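The glucosamine effect differed between flasks without and with IL-1β, by limma's test of the difference itself at an adjusted p under 0.05, for 99 of the genes described, and for 11.8% of all genes tested. Each value below is that difference on the log2 scale, the effect with IL-1β minus the effect without it. Both effects are measured against separate controls, and no explanation of the differences was tested.

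Of 20 genes called in opposite directions, those that rose with glucosamine alone and fell with IL-1β present were Gdf15 (-6.14), Vegfa (-1.86), Akr1b8 (-4.57), Gfpt2 (-1.65), Rragd (-3.63), Slc2a1 (-1.65), Mmp3 (-1.58), Adamts4 (-2.16), Igfbp5 (-3.38), Fgf9 (-4.50), Ereg (-3.50), Ccl2 (-2.39), Fosl1 (-2.62), Npas2 (-2.40), Neurl3 (-4.42) and Plaur (-3.19). Those that fell with glucosamine alone and rose with IL-1β present were Hapln1 (2.38), Ackr4 (3.57), Fibin (3.68) and Plppr5 (4.08).

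In 33 genes both effects were called in the same direction but differed in size. Those that rose were Cdkn1c (0.54), Sdf2l1 (-0.49), Ero1b (-1.71), Alg12 (-0.63), Srxn1 (-1.93), Nqo1 (-1.60), Hmox1 (-0.98), Gnpnat1 (-0.42), Txnip (3.93), Sqstm1 (-0.65), Pfkfb3 (-0.80), Serpinb2 (-2.53), Dusp1 (-0.59), Klf2 (1.96) and Mreg (-1.73). Those that fell were Cdca3 (0.84), Ccnb2 (0.80), Pttg1 (0.92), Cdkn3 (0.70), Angptl4 (1.55), Hadh (1.02), Etfb (0.50), Vcan (-1.37), Col14a1 (1.08), Lamb1 (-1.97), Myl9 (1.28), Fhl2 (0.98), Bmp4 (1.57), Fst (-3.10), Sfrp2 (1.63), Nrp1 (0.68), Fgf1 (1.08) and Nfkbia (-0.82).

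In 33 genes glucosamine alone was called and the effect with IL-1β did not pass the test. Those that rose with glucosamine alone were Atf3 (-3.34), Osgin1 (-2.04), Akr1b1 (-0.57), Sgk1 (-1.39), Ddit4l (-5.10), Trim63 (-2.37), Pc (-0.97), Abcg1 (-3.17), Plin2 (-0.79), Cd44 (-1.77), Mmp13 (-3.20), Itga3 (-4.22), Hmga1 (-2.81), Chchd10 (-3.21), Eeig1 (-3.37) and Hk2 (-1.49). Those that fell were Pik3ip1 (1.22), Eno3 (2.01), Col9a1 (0.69), Col12a1 (1.09), Eln (1.75), Adamts12 (2.63), Mylk (2.39), Bmp3 (2.34), Gdf10 (2.50), Igf1 (2.08), Vegfd (2.85), Il33 (3.87), Hpgd (3.64), Aqp1 (0.80), Col1a2 (0.63), Mfap2 (1.89) and Col9a2 (0.46).

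A difference was also called for 13 genes without a call for glucosamine alone: Ugdh (-0.85), Col11a1 (0.58), Col3a1 (0.76), Acan (2.14), Comp (0.94), Mmp9 (-6.87), Timp1 (-0.45), Ccl20 (-3.05), Ccl7 (-3.14), Il1b (-4.35), Il6 (-3.33), Ptgs2 (-3.98) and Ptges (-4.32).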

How the results depend on the processing

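The number of probe sets called changed with the fit, the test and the arrays used. Against 4300 (2088 upward, 2212 downward), array weights gave 9942 (4902 and 5040), the 5 arrays alone 9173 (4556 and 4617), omission of both replicate d arrays 7108 (3464 and 3644), and the methods' analysis of variance and Tukey test 2439 (930 upward). Leaving out single arrays gave 2389 to 3170 (1147 to 1518 upward, 1242 to 1686 downward), with the spread of a lone glucosamine array taken from the other groups. With 1 probe set per gene 1391 were called downward. Of the 1659 called with at least 2-fold change, 1005 were called so with a floor at 32, 1042 by the methods' test and 937 with 1 probe set per gene. The count for the difference of both glucosamine effects, 2500, became 6446 with array weights, 4253 without the replicate d arrays, and 1485 to 1885 without single arrays. By the methods' test the NRF2 list had 10 genes called upward, the hexosamine list 5 and matrix glycoproteins 12 downward; without single arrays the last 2 had 6 to 9 and 9 to 13. Lists with at least 50% of members called in 1 direction numbered 5, but 16 with array weights, 12 with the 5 arrays alone, 8 without the replicate d arrays, and 2 to 5 without single arrays. The log2 fold change of Ptges reversed to 1.33 without glucosamine replicate b and was -1.46 without replicate a. Of 164 called genes described, 108 kept their call in all settings. The methods' test, with its own threshold, lost 42: Atf3, Gdf15, Osgin1, Akr1b1, Amdhd2, Renbp, Gfpt2, Nans, Ugp2, Has2, Sgk1, Pc, Vcan, Col16a1, Lamb1, Mmp3, Adamts1, Adamts4, Itga3, Itga1, Bmp6, Fst, Angpt1, Fgf9, Cx3cl1, Ccl2, Pla2g2a, Fosl1, Npas2, Chchd10, Neurl3, Nfkbia, Spp1, Plaur, Fzd4, Hlf, Rgr, Hk2, Chst12, Bcl2l1, Adamts15 and Slc6a9. Gdf15, Osgin1, Rragd, Gdf10, Plaur, Hlf and Rgr lost their calls with a floor at 32, and Vegfd and Hlf with one at the 10th percentile. Glucosamine and untreated arrays of the same letter had deviations from their group means that correlated at -0.113 and -0.083. With only 2 glucosamine arrays their deviations mirror each other, so these values cannot decide whether the letters pair the arrays. The main fit used no pairs, and a replicate block gave 5755 calls (2812 upward, 2943 downward) and 3521 for the difference of both effects. Under the block Col1a2 and Spp1 lost and Ptgs2 gained a call. Except where a value is given, the cause was not tested.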
